A study of Mus musculus with 96 samples.

Results

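The 9 genes described here encode enzymes of the citric acid cycle in mitochondria: Cs, Idh2, Idh3a, Idh3b, Idh3g, Ogdh, Suclg1, Fh1 and Mdh2. They were chosen by name, as 9 of the 55376 genes in a table of read counts from mouse heart ventricle, and all 9 passed the filter on low counts. RNA was sequenced in 96 libraries from mice of the genotype iCSBmal1 KO, in which Bmal1 (gene symbol Arntl), the activating factor of the circadian clock, can be deleted in cardiomyocytes by an induced recombinase. The series set out to learn how BMAL1 bears on sex differences in the heart's circadian transcriptome. Each of the 4 groups held 24 libraries: females and males given vehicle and females and males given tamoxifen, sampled every 4 h from ct 18 to ct 62 with 2 libraries per time, where ct is taken to be circadian time in hours. All 4 groups carry the iCSBmal1 KO genotype, the vehicle hearts too, and tamoxifen is the drug that induces the deletion, so the drug and the loss of Bmal1 cannot be told apart. Cells of the ventricle other than cardiomyocytes keep the gene. The driver of the recombinase, the strain, the age and the time since treatment are not stated in the sources used here. The labels do not say that libraries came from separate animals, so p-values measure the spread between libraries, which may be technical.

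The citric acid cycle takes the acetyl group that fatty acid oxidation and pyruvate dehydrogenase supply, oxidises it to carbon dioxide and passes the electrons to the respiratory chain as NADH and FADH2. The heart, which works without rest and is packed with mitochondria, depends on it for most of its ATP, and calcium speeds up the isocitrate and oxoglutarate dehydrogenase steps when the workload rises. Idh2 stands apart from the cycle's NAD-linked dehydrogenases because it uses NADP and helps to supply the NADPH that keeps mitochondrial glutathione reduced.

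In the GENCODE M21 annotation of GRCm38, each of the 9 is a protein-coding gene, and the counts cover all of its exons. Cs, citrate synthase, joins acetyl-CoA to oxaloacetate and lies on chromosome 10 (128337734 to 128362479, plus strand). Idh2, on chromosome 7 (80094846 to 80115392, minus strand), is the NADP-linked isocitrate dehydrogenase of mitochondria. The NAD-linked isocitrate dehydrogenase is built from the catalytic subunit Idh3a, on chromosome 9 (54586334 to 54604661, plus strand), and from Idh3b, on chromosome 2 (130279309 to 130284547, minus strand), and Idh3g, on chromosome X (73778963 to 73786897, minus strand). Ogdh, the first enzyme of the oxoglutarate dehydrogenase complex, lies on chromosome 11 (6291633 to 6356642, plus strand). Suclg1, on chromosome 6 (73248382 to 73276911, plus strand), is the alpha subunit shared by the ATP-forming and GTP-forming succinyl-CoA ligases. Fh1, fumarate hydratase, lies on chromosome 1 (175600374 to 175625635, minus strand), and Mdh2, the mitochondrial malate dehydrogenase that closes the cycle, on chromosome 5 (135778480 to 135790398, plus strand). Idh3b shares 5 exon bases with the antisense gene Nop56, and whether the counting used strand is not stated in the sources used here. Cs has a near copy on the same chromosome, Csl, with a mean of 2.95 counts per library.

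Cs, Idh2 and Ogdh are the enzymes on which the comparisons below turn, and sequence upstream of their start sites is shown for that reason. RefSeq (GRCm38.p6) gave 13 start sites for 8 of the 9 genes, 6 of them for Ogdh, and Idh3a had no entry. The 250 bases before each start were searched on both strands for the E-box CACGTG, to which BMAL1 binds together with CLOCK, the GC box GGGCGG and the CCAAT box CCAAT. Capitals mark these motifs on either strand. The sequences run 5′ to 3′ in the direction of the gene, and the windows of Cs and of the start of Ogdh farthest upstream are given whole.
Cs, chr10:128337477-128337726 (plus strand): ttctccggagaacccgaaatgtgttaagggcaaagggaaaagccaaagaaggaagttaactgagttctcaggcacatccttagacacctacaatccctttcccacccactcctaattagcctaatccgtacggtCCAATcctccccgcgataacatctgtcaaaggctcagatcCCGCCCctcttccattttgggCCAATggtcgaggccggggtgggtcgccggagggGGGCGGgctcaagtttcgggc
Ogdh, chr11:6291347-6291596 (plus strand): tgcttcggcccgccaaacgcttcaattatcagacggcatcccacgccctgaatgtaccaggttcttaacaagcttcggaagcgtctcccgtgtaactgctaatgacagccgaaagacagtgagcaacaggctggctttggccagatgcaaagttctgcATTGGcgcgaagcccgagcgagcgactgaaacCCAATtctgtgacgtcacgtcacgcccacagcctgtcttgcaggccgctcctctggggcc
Ogdh E-box, chr11:6292048-6292077 (plus strand): gtcgcggcgtgtCACGTGgaccggtcgctc
Ogdh E-box, chr11:6292405-6292434 (plus strand): ggcaagaatcctCACGTGgataccatgtaa
Idh2, chr7:80115372-80115401 (minus strand): gtgagacCCAATgGGGCGGcaggttctgca

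The E-box letters were found in 3 of the 13 windows, all of them upstream of later start sites of Ogdh, against 6.02% of 32851 windows of the same length over all genes. The 3 windows hold 2 separate copies, and each copy lies in an exon of 1 further GENCODE transcript of Ogdh. Cs and Idh2 each hold a CCAAT box and a GC box. Of the 13 windows, 6 hold a GC box, against 32.7% of all windows, and 8 a CCAAT box, against 33.9% of all windows, and windows of 1 gene can overlap. The motif AAGGTCA of the oestrogen-related receptors (4.08% of all windows), the NRF1 motif (0.782%) and the D-box TTATGTAA (0.819%) were found in none of the 13. A match describes these letters only, and no match says only that they are not in this window.

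The targeted gene was read first. The fitted 24 h amplitude of Arntl, the distance from the mean to the peak on the log2 scale, was 2.38 ± 0.16 in vehicle females and 2.05 ± 0.17 in vehicle males, against 0.87 ± 0.14 in both tamoxifen groups (SE). Its mean level was 20.4 to 16.4 CPM in vehicle and 17.6 to 15.1 CPM in tamoxifen hearts (TMM-scaled CPM, females first). The counts cover the whole gene, so reads from exons that were not deleted are among them. Library totals ran from 8944955 to 20596194 counts, and totals of vehicle males (8944955 to 15588379) were lower than those of vehicle females (12541561 to 20596194). The summed level of 10 cardiomyocyte markers was 42070 to 53350 CPM over all libraries, and all 10 passed the filter. In 13 libraries, of which 7 are vehicle females, 3 vehicle males, 2 tamoxifen males and 1 a tamoxifen female, the atrial gene Myl7 exceeded 20 CPM. Among these, the library labelled Tam_F_ct54_559, has sex-linked counts that go against its label. The numbers in the library titles fall in separate runs for vehicle females, vehicle males and tamoxifen hearts. The labels do not say what the numbers mark, so a batch tied to them cannot be told apart from treatment, or from sex in vehicle hearts.

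A set of 10 vehicle male libraries stood apart and bears on every comparison with that group. The share of their counts in genes of the GENCODE class TEC, which holds unverified transcripts, was 0.1228% to 0.1895%, where the highest library of the other 3 groups reached 0.1114%. They came from ct 26, 30, 34, 38, 42, 54, 58 and 62, with both libraries at ct 30 and ct 34. Cs held 467 to 972 CPM in these 10 libraries (median 729) and 1131 to 1552 CPM (median 1428) in the other 14 vehicle males. Ogdh held 575.9 to 1274 CPM against 1541 to 2645 CPM, Idh3a 266 to 594.6 CPM against 659 to 889 CPM, and Fh1 250 to 490 CPM against 517.6 to 665 CPM. For these 4 of the 9 enzymes the 10 libraries lay below all of the other 14 with no overlap, as they did for 6.28% of all 15629 genes tested, and for 2.6% they lay above. The other 5 enzymes overlapped. Of the 10 libraries, 9 lay below all of the other 14 for Idh3b (376 to 734 against 709 to 901 CPM), 6 for Idh3g (312 to 483 against 435 to 536.8 CPM) and 5 for Mdh2 (665 to 1142 against 982 to 1357 CPM). The count was 4 for Idh2 (1140 to 1857 against 1558 to 2233 CPM) and 2 for Suclg1 (352 to 565.4 against 387 to 622 CPM). Endothelial markers, summed over 7 genes, reached 1392 to 2306 CPM in the 10 libraries and 854 to 1258 CPM in the other 14, and the 10 cardiomyocyte markers 42070 to 48870 CPM against 46660 to 50380 CPM. The part of TEC share, cell make-up or RNA quality in the enzyme levels was not tested, and in bulk tissue fewer cells of a type and less RNA per cell cannot be told apart. The tests of the 9 enzymes that use vehicle males are therefore given with and without these 10 libraries.

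**Figure D1:**
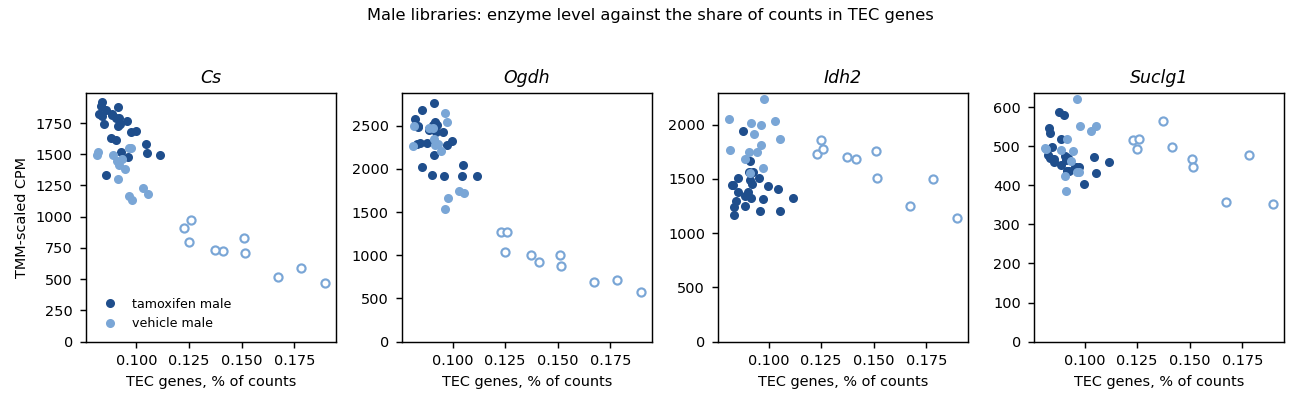
TMM-scaled CPM (y axis) of Cs, Ogdh, Idh2 and Suclg1 in each male library against the share of its counts in TEC genes (x axis, percent). Light points are vehicle males, dark points tamoxifen males and open circles the 10 vehicle male libraries above 0.1114%. Cs and Ogdh of the open circles lie below all filled points of their group, while those of Idh2 and Suclg1 overlap them.

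Compared per length, Idh2 had the highest mean level of the 9 genes in every group and Suclg1 the lowest. In vehicle males, though, Suclg1 lay below Idh3a in only 15 of 24 libraries. The length is that of all annotated exons of a gene merged (2588 bases for Idh2, 4617 for Suclg1). It can exceed that of the transcripts expressed, so the order between genes may depend on the annotation. In vehicle females the mean level of Idh2 was 651 CPM per kb of exon, followed by Ogdh (433.5), Mdh2 (281), Cs (244), Idh3b (220), Idh3g (166), Fh1 (160), Idh3a (147) and Suclg1 (86.0). Neighbours that differed by less than the larger SD of the pair over 24 libraries were Cs and Idh3b, Idh3g and Fh1, and Fh1 and Idh3a. The order was the same in tamoxifen females and tamoxifen males, where Fh1 and Idh3a did not differ beyond that spread in either sex, nor Mdh2 and Cs in males. There the gap between Idh2 and Ogdh was smaller, with 485 against 401 CPM per kb in tamoxifen females and 544 against 425 CPM per kb in tamoxifen males. Over all 24 vehicle males Idh2 reached 675 CPM per kb, Ogdh 306 and Mdh2 301. Of the 8 pairs of neighbours there, 6 differed by less than the larger SD: Ogdh and Mdh2, Idh3b and Cs, Cs and Idh3g, Idh3g and Fh1, Fh1 and Idh3a, and Idh3a and Suclg1. In the 14 vehicle males without the high-TEC libraries, Idh2 held 718 CPM per kb, and Ogdh (402) differed from Mdh2 (325) by more than the larger SD (67.5). Only Idh3b and Cs, and Idh3g and Fh1, were within it. In the 10 high-TEC libraries the lowest mean was that of Idh3a (83.5 CPM per kb), next to Suclg1 (102). The 3 subunits of the NAD-linked isocitrate dehydrogenase held 147, 220 and 166 CPM per kb in vehicle females (Idh3a, Idh3b, Idh3g). The ratio of Idh3b to Idh3g counts was 1.68 ± 0.06 in vehicle females and 1.58 ± 0.06 in both tamoxifen groups (SD). In vehicle males it was 1.56 ± 0.17 over all 24 libraries, 1.40 ± 0.15 in the 10 high-TEC libraries and 1.67 ± 0.07 in the other 14, so whether vehicle males lay above tamoxifen males turned on those 10. This ratio was picked after its values were seen and is given as a description.

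**Figure D2:**
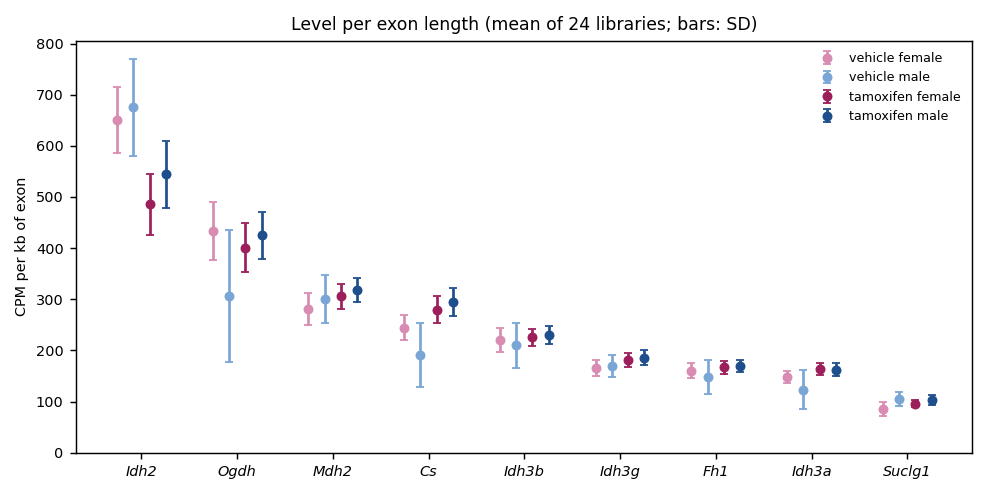
Mean level of each enzyme in CPM per kb of exon (y axis) in the 4 groups, with the SD over 24 libraries as bars. The mean of Idh2 stands highest and that of Suclg1 lowest in each group, with wide bars in vehicle males, and Idh2 is lower in tamoxifen than in vehicle hearts of both sexes.

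Tamoxifen hearts held less Idh2 than vehicle hearts in both sexes, and more Cs in males. Cs was also called higher in females, but in only 15 of the 27 fits run. Among these 15 were the fits without the high-TEC vehicle male libraries. In females, 5 of the 9 enzymes passed the test: Cs, Idh3g, Suclg1 and Mdh2 rose and Idh2 fell. Of all 15629 genes tested, 27.5% passed in this comparison, 15.2% higher and 12.3% lower. The median log2 difference over the 9 enzymes was 0.13, against 0.01 over all genes tested. The call is an adjusted p under 0.05 by edgeR's quasi-likelihood test with Benjamini-Hochberg adjustment over all genes tested, and errors of log2 differences are SE. DESeq2 also called 5.

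Idh2, the NADP-linked dehydrogenase, had the largest difference of the 9 in females. Its level was 1329 to 1993 CPM in vehicle females (median 1672) and 942 to 1658 CPM in tamoxifen females (median 1264). The ranges overlapped, but 17 of the 24 tamoxifen libraries lay below every vehicle library. The level fell by 0.42 ± 0.05 on the log2 scale (adjusted p = 2.7e-10), to 0.747 of the vehicle level, and was lower at 12 of 12 times. Idh2 was called in this comparison in each of the 27 fits run, with differences of -0.46 to -0.40.

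Cs, which opens the cycle, held 986 to 1638 CPM in vehicle females (median 1402) and 1308 to 1855 CPM in tamoxifen females (median 1650). The ranges overlapped, with 12 tamoxifen libraries above every vehicle library. The level was higher by 0.20 ± 0.07 (adjusted p = 0.038), at 11 of 12 times. The call held in 15 of 27 fits (0.15 to 0.24 over all of them). It held in the fits without the high-TEC vehicle male libraries and with only the groups compared. The call was lost without ct 22, 30, 34, 38, 42, 50 or 54, where the difference was 0.15 to 0.19. Leaving out only the libraries high in Myl7 also ended it (0.21, adjusted p = 0.0619). It was also lost with DESeq2's size factors in edgeR (0.19, adjusted p = 0.0504), with no filter (0.18, adjusted p = 0.13), in the first 24 h (0.24, adjusted p = 0.0751) and in the second (0.15, adjusted p = 0.32).

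Among the NAD-linked isocitrate dehydrogenase subunits in females, Idh3g rose from a median of 437 CPM (373 to 533) to 491 CPM (424 to 589.4), by 0.13 ± 0.04 (adjusted p = 0.0125). The groups overlapped. Idh3a had a larger difference with a wider error, 0.15 ± 0.07 (adjusted p = 0.1), and was higher at 11 of 12 times, while Idh3b differed by 0.04 ± 0.06 (adjusted p = 0.68). Without the 10 high-TEC vehicle male libraries, none of which is female, the SE was smaller and Idh3a passed in females too, at 0.15 ± 0.03 (adjusted p = 1.1e-04), and 34% of all genes then passed.

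Later in the cycle, Suclg1 of the succinyl-CoA ligases rose in females from a median of 382 CPM (322 to 561.5) to 447.3 CPM (374 to 535.6). That was a difference of 0.17 ± 0.05 (adjusted p = 0.0029), seen at 10 of 12 times, with overlapping groups. Mdh2 rose from a median of 978 CPM (834 to 1234) to 1099 CPM (929 to 1280), by 0.13 ± 0.05 (adjusted p = 0.0356), and also overlapped. Its call was lost without any of ct 18, 30, 34, 38, 46, 50, 54, 58 or 62 (0.10 to 0.13). The calls of Mdh2 and Suclg1 in females held without the 10 high-TEC vehicle male libraries. Without the libraries high in Myl7, Idh2 alone of the 9 was called in females. The differences of Idh3g (0.10), Suclg1 (0.12) and Mdh2 (0.09) were then no longer past the threshold. When the 10 high-TEC vehicle male libraries were left out as well, Cs, Idh2, Idh3a, Idh3g and Suclg1 were called in females. Mdh2 was not called there (0.08, adjusted p = 0.0787). Ogdh (-0.11 ± 0.09) and Fh1 (0.06 ± 0.06) did not pass the test in females.

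**Figure D3:**
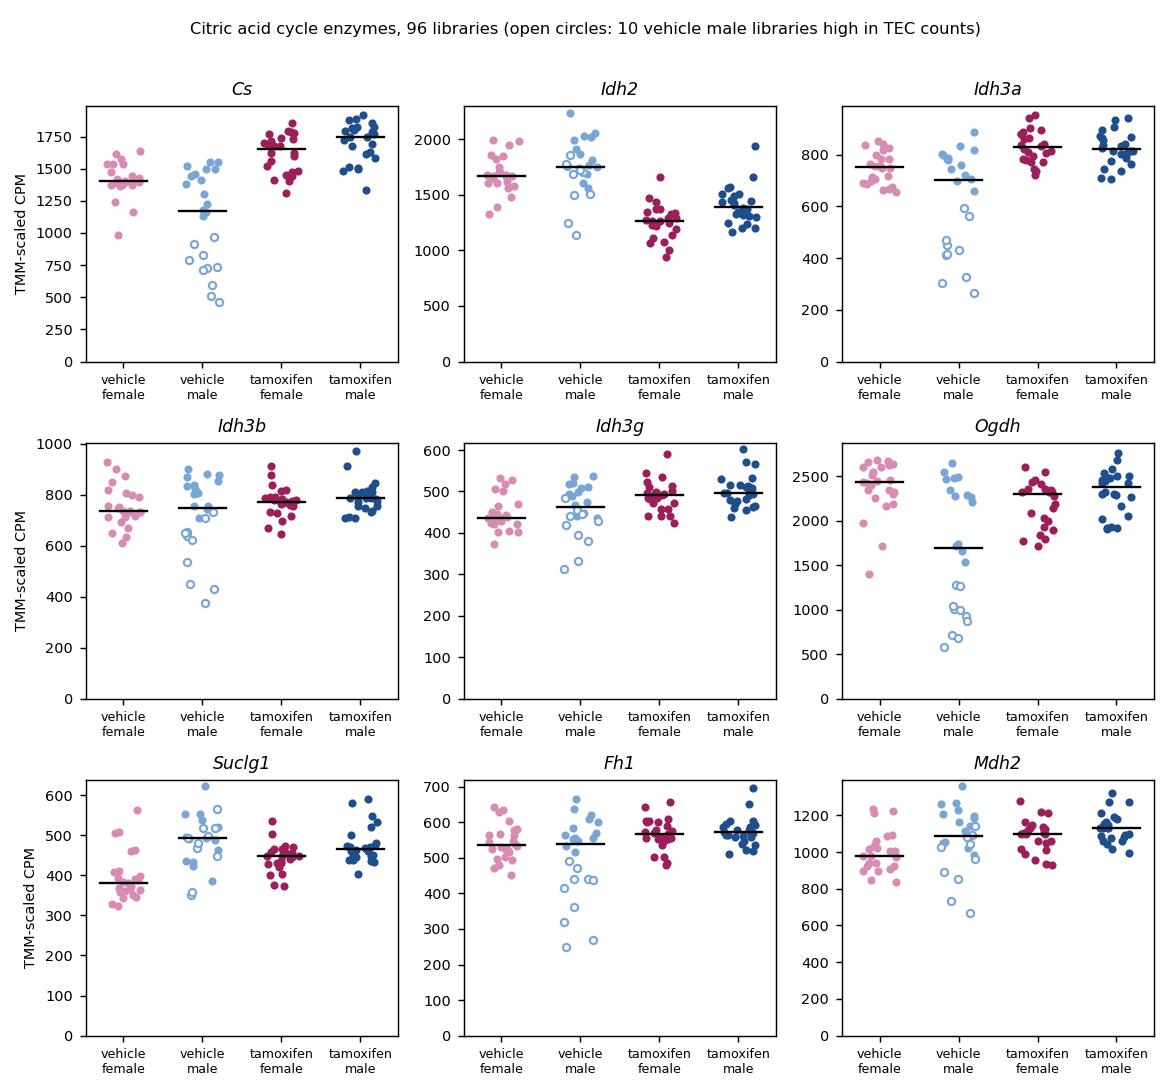
TMM-scaled CPM (y axis, from 0) of the 9 enzymes in each of the 96 libraries by group, with the group median as a bar and the 10 high-TEC vehicle male libraries as open circles. Idh2 sits lower in both tamoxifen groups, and the low values of Cs, Idh3a, Ogdh and Fh1 in vehicle males are the open circles.

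In males, 7 of the 9 enzymes passed the test with all libraries, 6 higher and 1 lower, where 70.0% of all genes passed (32.2% higher, 37.8% lower). Much of this rested on the 10 high-TEC vehicle libraries. Without them 3 passed, Cs and Idh3a higher and Idh2 lower, where 42.2% of all genes passed. The median over the 9 enzymes was 0.14 with all libraries and -0.01 without the 10, against -0.05 and -0.01 over all genes tested.

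Cs held 467 to 1552 CPM in vehicle males (median 1173) and 1331 to 1915 CPM in tamoxifen males (median 1746). The groups overlapped, with 19 of 24 tamoxifen libraries above every vehicle library. The difference was 0.64 ± 0.07 (adjusted p = 3.7e-12) and was seen at 12 of 12 times. Without the 10 libraries it was 0.34 ± 0.05 (adjusted p = 5.0e-08), and Cs was called in all 27 fits (0.31 to 0.75).

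Idh2 held 1140 to 2233 CPM in vehicle males (median 1753) and 1162 to 1942 CPM in tamoxifen males (median 1394). It fell by 0.31 ± 0.05 (adjusted p = 2.9e-07) and was lower at 12 of 12 times. Against the 14 other vehicle males alone, 20 of the 24 tamoxifen libraries lay below every vehicle library, and the level fell by 0.43 ± 0.06 (adjusted p = 7.2e-09). Idh2 was called in all 27 fits (-0.45 to -0.22).

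Ogdh, which holds the step after isocitrate dehydrogenase, held 575.9 to 2645 CPM in vehicle males (median 1690) and 1913 to 2765 CPM in tamoxifen males (median 2377). The ranges overlapped. The difference was 0.52 ± 0.09 with all libraries (adjusted p = 8.6e-07) and 0.15 ± 0.07 without the 10 (adjusted p = 0.053), so the call was lost. Idh3a held 266 to 889 CPM in vehicle males (median 703) and 707 to 942 CPM in tamoxifen males (median 820). Its difference was 0.41 ± 0.07 (adjusted p = 5.4e-07), and it kept the call without the 10 libraries at 0.10 ± 0.04 (adjusted p = 0.039).

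The other calls in males ended or turned without the 10 libraries. Fh1 went from 0.20 ± 0.06 to -0.01 ± 0.04, Idh3b from 0.14 ± 0.06 to -0.07 ± 0.04 and Idh3g from 0.13 ± 0.04 to -0.00 ± 0.04. Idh3b had also lost its call without ct 26, 34 or 62 (0.09 to 0.11). Suclg1 (-0.02 ± 0.05) and Mdh2 (0.08 ± 0.05) did not pass with all libraries, and neither passed without the 10 (-0.10 and -0.07). When the 13 libraries high in Myl7 were left out as well, which leaves out 23 in all, Cs (0.37), Idh3a (0.10) and Ogdh (0.20) passed as higher. Idh2 (-0.45), Idh3b (-0.10), Suclg1 (-0.14) and Mdh2 (-0.10) passed as lower, and 47.3% of all genes passed.

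**Figure D4:**
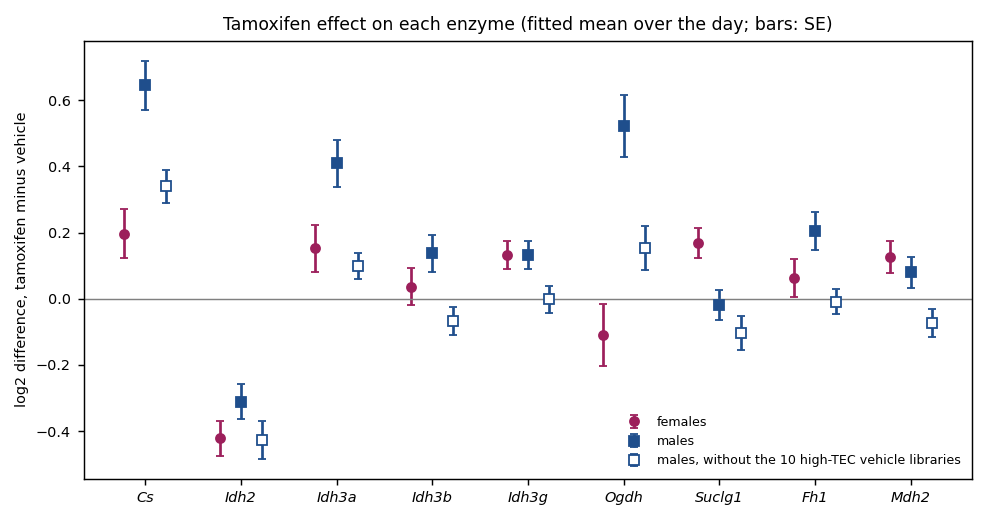
Log2 difference between tamoxifen and vehicle hearts (y axis, fitted mean over the day, SE as bars) for each enzyme, in females (circles), in males (filled squares) and in males without the 10 high-TEC vehicle libraries (open squares). Idh2 lies below 0 and Cs above 0 in all 3 fits, while the differences of Ogdh, Idh3a and Fh1 in males are smaller without the 10 libraries.

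The opposite differences of Cs and Idh2 show in the ratio of their counts within a library, which no scaling of the library can move. This ratio was picked after the values were seen and is a description, with no test. In females the lowest, median and highest ratio of Cs to Idh2 were 0.498, 0.872 and 0.989 with vehicle and 0.869, 1.31 and 1.47 with tamoxifen. The groups overlapped, with 23 of 24 tamoxifen libraries above every vehicle library. In males they were 0.394, 0.595 and 0.968 with vehicle and 0.839, 1.21 and 1.55 with tamoxifen, with 21 of 24 tamoxifen libraries above every vehicle library. The mean ratio was 0.452 ± 0.052 in the 10 high-TEC vehicle males and 0.753 ± 0.133 in the other 14 (SD), against 1.23 ± 0.18 in tamoxifen males.

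Whether tamoxifen changed an enzyme differently in the sexes was tested as the effect in females minus that in males. With all libraries 4 of 9 passed, where 52.3% of all genes passed (27.0% higher, 25.4% lower): Cs (-0.45 ± 0.10, adjusted p = 2.6e-04), Idh3a (-0.26 ± 0.10, adjusted p = 0.027), Ogdh (-0.63 ± 0.13, adjusted p = 5.1e-05) and Suclg1 (0.19 ± 0.06, adjusted p = 0.0116). Without the 10 vehicle male libraries 28.6% of all genes passed, and 3 of the 9. Ogdh stayed lower at -0.27 ± 0.08 (adjusted p = 0.0112) and Suclg1 higher at 0.27 ± 0.07 (adjusted p = 0.0019), and Mdh2 passed at 0.19 ± 0.05 (adjusted p = 0.0049). Cs was then -0.15 ± 0.06 (adjusted p = 0.0584) and Idh3a 0.05 ± 0.05. The call of Idh3a was also lost without ct 22, 30 or 34 (-0.25 to -0.23), and that of Suclg1 without ct 46 (0.15). The effect on Idh2 did not pass this test with all libraries (-0.11 ± 0.07, adjusted p = 0.2) or without the 10 (-0.00 ± 0.07, adjusted p = 0.99).

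Between the sexes in vehicle hearts, 6 of the 9 enzymes passed with all libraries, where 68.3% of all genes passed (31.8% higher and 36.5% lower in females). Cs (0.37 ± 0.07), Idh3a (0.27 ± 0.07), Ogdh (0.55 ± 0.09) and Fh1 (0.12 ± 0.06) were higher in females, and Suclg1 (-0.29 ± 0.05) and Mdh2 (-0.10 ± 0.05) lower. Their adjusted p-values were 8.8e-06, 6.4e-04, 3.4e-07, 0.048, 7.6e-08 and 0.0476 in that order. Suclg1 was called in all 27 fits (-0.36 to -0.22). Its level was 322 to 561.5 CPM in vehicle females and 352 to 622 CPM in vehicle males, and 5 female libraries lay below every male one. The Fh1 call was lost without ct 22, 26, 30, 34, 42 or 62 (0.08 to 0.12), and that of Mdh2 without ct 18, 30, 38, 46, 50, 54 or 58 (-0.11 to -0.06).

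Without the 10 libraries the vehicle sex difference also held 6 calls, where 46.7% of all genes passed, but with other members and signs. Ogdh was higher in females at 0.19 ± 0.07 (adjusted p = 0.0148). Suclg1 (-0.36 ± 0.05), Mdh2 (-0.25 ± 0.04), Idh2 (-0.16 ± 0.06), Idh3g (-0.16 ± 0.04) and Idh3b (-0.13 ± 0.04) were lower in females. Cs was 0.08 ± 0.05 and Idh3a -0.03 ± 0.04, and neither passed. In tamoxifen hearts only Idh2 passed, as lower in females, where 7.68% of all genes passed (3.6% lower). It held 942 to 1658 CPM in females and 1162 to 1942 CPM in males, a difference of -0.17 ± 0.05 (adjusted p = 0.0346), with 6 female libraries below every male one. That call was lost without the library labelled Tam_F_ct54_559 (-0.15) and without ct 22, 30, 34, 38, 46 or 54 (-0.17 to -0.13). It held without the 10 vehicle male libraries, where 1908 of all genes passed. The other 8 enzymes differed between tamoxifen females and males by -0.10 to 0.01, and each was called in 0 of 27 fits.

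A 24 h rhythm was called for 0 of 9 enzymes in tamoxifen females and 0 of 9 in tamoxifen males, where 17.1% and 8.03% of all genes passed, and for 9 genes a count of 0 lies near those shares. At an unadjusted p under 0.05 the count was also 0 in both groups, and DESeq2 called 0 in both. These fits hold the 10 high-TEC libraries in the shared estimate of the spread. Without them, rhythm calls over all genes in tamoxifen males went from 1255 to 2015. Fitted amplitudes were 0.02 to 0.07 in tamoxifen females and 0.01 to 0.08 in tamoxifen males. The mean at the highest time over that at the lowest was widest for Idh2 in these groups, at 1.38 in tamoxifen females and 1.39 in tamoxifen males, beside 1.38 for Idh2 in vehicle females. In vehicle females 1 of 9 passed, Suclg1, where 34.5% of all genes passed. Its amplitude was 0.18 ± 0.05 (adjusted p = 0.0039), with a fitted peak at ct 16.3 of the 24 h cycle. The call was lost without ct 42 (0.12), and in the first 24 h alone (0.12).

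The ct 42 pair of vehicle females stood apart from the rest of its group. Cs held 986 and 1162 CPM there, where all other vehicle female libraries held 1243 CPM or more. Ogdh held 1406 and 1711 CPM at ct 42, where the others held 1974 CPM or more. Suclg1 (504.5 and 561.5 CPM) and Idh2 (1982 and 1993 CPM) lay at the high end of their group at the same time, as did Fh1 (628 and 643 CPM) and Mdh2 (1212 and 1234 CPM).

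In vehicle males, 4 of 9 enzymes passed for a rhythm, where 55.2% of all genes passed: Ogdh (amplitude 0.51 ± 0.09), Cs (0.36 ± 0.07), Idh3a (0.28 ± 0.07) and Fh1 (0.19 ± 0.06). Their adjusted p-values were 1.8e-05, 1.3e-04, 0.002 and 0.0099, with fitted peaks at ct 21.9 to 22.8. The highest and lowest times of Ogdh were ct 18 (2596 CPM) and ct 34 (820 CPM), a 3.17-fold range, and those of Cs were ct 18 (1550 CPM) and ct 34 (658 CPM). Both libraries at ct 34 are among the 10 high in TEC counts, as are both at ct 30. Without the 10, only Ogdh passed (0.24, adjusted p = 0.0472), where 18.6% of all genes passed, and the amplitudes of Cs, Idh3a and Fh1 were 0.15, 0.06 and 0.09. Without ct 34 the calls of Idh3a (0.22) and Fh1 (0.16) were lost, and without ct 46 that of Fh1 (0.16). In the fits without the 10 libraries, 5 of 9 passed in vehicle females, Suclg1, Fh1, Mdh2, Idh3b and Idh3g, with amplitudes of 0.10 to 0.18, where 43.4% of all genes passed.

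**Figure D5:**
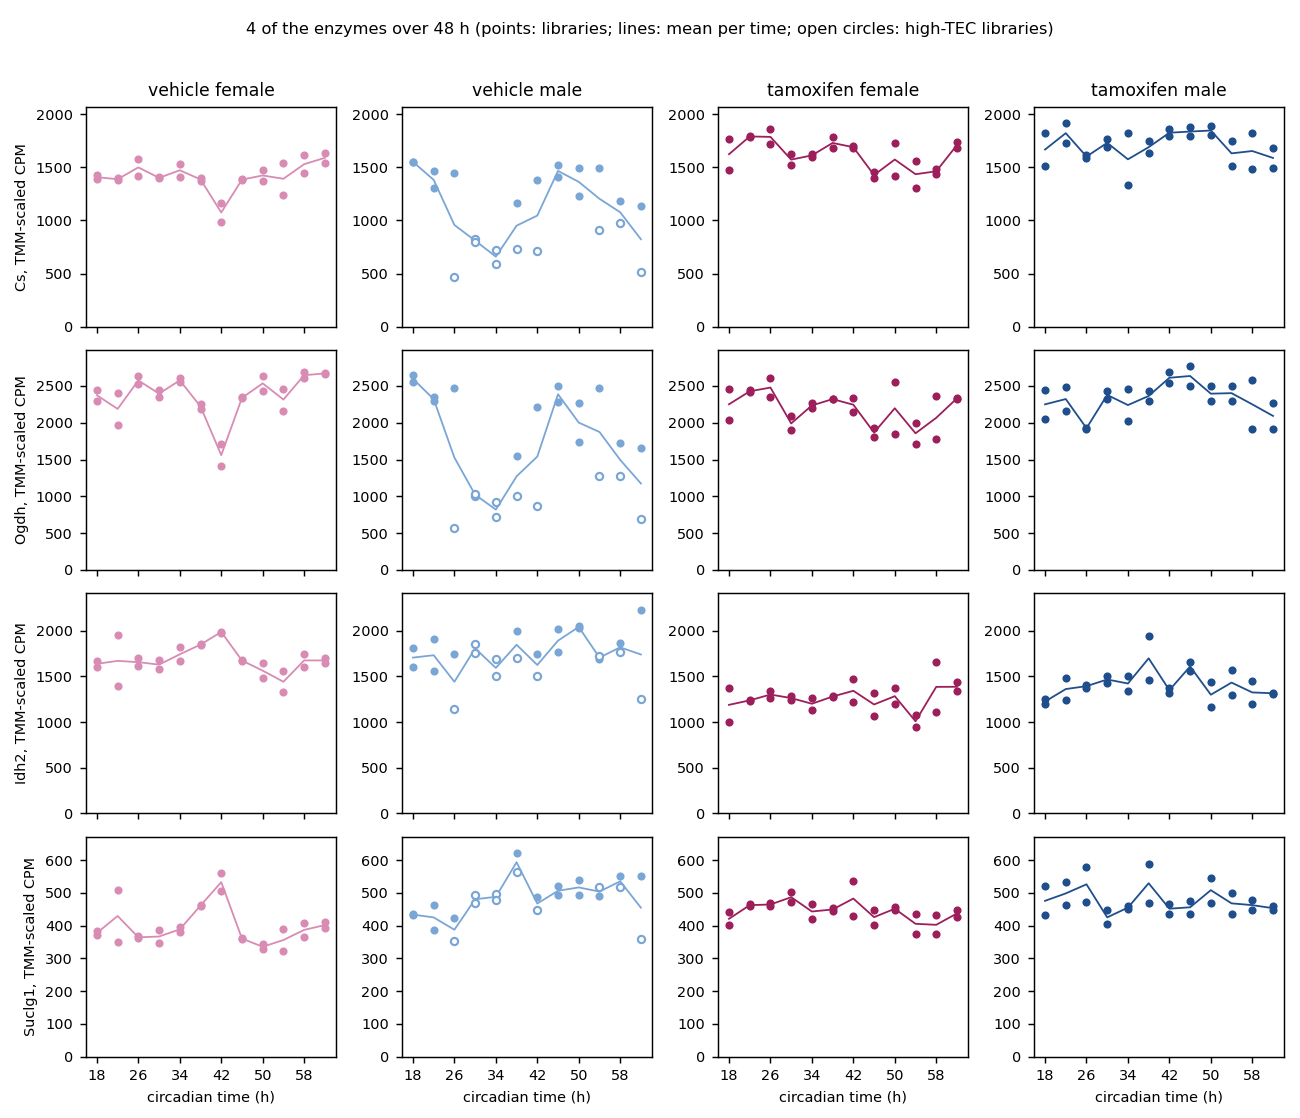
TMM-scaled CPM (y axis, from 0) of Cs, Ogdh, Idh2 and Suclg1 against circadian time (x axis, hours) in the 4 groups. Points are libraries, lines the mean of 2 libraries per time and open circles the 10 high-TEC vehicle male libraries. Cs and Ogdh dip at ct 42 in vehicle females, and their low values in vehicle males lie at the open circles.

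Differences between rhythms were tested on the cosine and sine terms jointly, and the value given is the length of their difference on the log2 scale. With tamoxifen in females 0 of 9 changed, where 0.237% of all genes passed. At an unadjusted p under 0.05 there was 1, and DESeq2 called 0. With tamoxifen in males only Ogdh passed (0.47, adjusted p = 0.02), where 20.7% of all genes passed. Its call was lost without ct 22 (0.46) or ct 34 (0.41), and without the 10 libraries (0.21, adjusted p = 0.28), where 2.56% of all genes passed. Cs passed in males when ct 26, 42, 54 or 58 was left out (0.31 to 0.39), as did Fh1 without ct 26 (0.26). Between vehicle females and males 5 of 9 passed, where 37.4% of all genes passed: Ogdh (0.62), Cs (0.44), Idh3a (0.35), Fh1 (0.25) and Suclg1 (0.20). Without the 10 libraries Ogdh (0.34) and Fh1 (0.20) passed, where 16.9% of all genes passed. With single times left out, Idh3a lost its call without ct 34 or 46 (0.28 and 0.31). Fh1 lost it without ct 34, 46, 50 or 62 (0.19 to 0.23), and Suclg1 without ct 22, 30, 34, 42, 50, 54 or 58 (0.11 to 0.20), and Idh3b passed without ct 26 (0.27). Between tamoxifen females and males 0 of 9 differed, where 0.0384% of all genes passed, with 0 at an unadjusted p under 0.05 and 0 by DESeq2.

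Other enzymes of the cycle were read beside the 9 members. Of 9 such genes, the oxoglutarate dehydrogenase partners Dlst and Dld, the Ogdh homologue Ogdhl, the ligase subunits Sucla2 and Suclg2 and the succinate dehydrogenase subunits Sdha, Sdhb, Sdhc and Sdhd, 4 rose with tamoxifen in females and 0 fell, beside 15.2% of all genes higher and 12.3% lower. Ogdhl rose most, from a median of 136 CPM (98.3 to 193) to 251 CPM (166 to 353), by 0.85 ± 0.07 (adjusted p = 2.1e-17). Sucla2 rose by 0.29, Dlst by 0.22 and Sdhb by 0.13. Dld (0.16), Sdha (0.08), Sdhc (0.03), Sdhd (0.15) and Suclg2 (0.04) did not pass. The median over these genes was 0.15.

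In males 7 of these 9 rose with tamoxifen and 0 fell with all libraries, where 32.2% of all genes were higher and 37.8% lower: Ogdhl (0.58), Dld (0.55), Dlst (0.53), Sdha (0.52), Sucla2 (0.48), Suclg2 (0.48) and Sdhd (0.34), while Sdhb (-0.11) and Sdhc (0.11) did not pass. Without the 10 vehicle libraries 6 rose and 1 fell, where 42.2% of all genes passed in either direction. Ogdhl rose by 0.42, Dlst by 0.25, Sucla2 by 0.20, Sdha by 0.19, Suclg2 by 0.19 and Dld by 0.18, and Sdhb fell by 0.19. Between the sexes in vehicle hearts without those libraries, Ogdhl (-0.72), Sdhb (-0.36), Sdhc (-0.15), Sdhd (-0.15) and Sucla2 (-0.14) were lower in females and Sdha (0.10) and Suclg2 (0.10) higher. In tamoxifen hearts Ogdhl was lower in females (-0.30, adjusted p = 0.0026).

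The cytosolic counterparts of cycle enzymes are Idh1, Mdh1, Aco1 and Acly, the enzyme that splits exported citrate. With tamoxifen in females 1 of the 4 fell, Idh1 (-0.18 ± 0.06, adjusted p = 0.0095), and Acly (0.07), Aco1 (-0.01) and Mdh1 (0.08) did not pass. In males Aco1 rose (0.51 ± 0.06 with all libraries, 0.25 ± 0.05 without the 10). Mdh1 passed in males with all libraries (0.19) and not without the 10 (-0.04), and Idh1 (0.08) and Acly (-0.07) passed neither with all libraries nor without the 10. Idh1 and Idh2, which make NADPH in the cytosol and in mitochondria, were thus both lower with tamoxifen in females.

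Of 12 enzymes and carriers that feed or drain the cycle, 4 rose and 2 fell with tamoxifen in females (15.2% and 12.3% of all genes). The malic enzyme Me2 rose most (0.26, adjusted p = 1.8e-04), and Pcx, the pyruvate carboxylase that refills oxaloacetate, fell most (-0.40, adjusted p = 5.3e-05). In males 8 rose and 4 fell with all libraries (32.2% and 37.8% of all genes), led by the aspartate aminotransferase Got2 (0.55) and by Pck2, the mitochondrial phosphoenolpyruvate carboxykinase (-0.40). When the 10 libraries were left out, 4 rose and 3 fell, and 42.2% of all genes passed. Of 7 genes that attach lipoic acid to the dehydrogenase complexes or assemble succinate dehydrogenase, 7 rose with tamoxifen in females, where 15.2% of all genes were higher, led by Sdhaf4 (0.32, adjusted p = 1.5e-06). In males 5 of the 7 rose with all libraries, where 32.2% of all genes were higher, led by Sdhaf2 (0.42), and 2 without the 10, where 42.2% of all genes passed in either direction. The median over the 7 in females was 0.21, against 0.01 over all genes tested.

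Markers of cell types moved in the same comparisons. Of all genes, 15.2% were higher and 12.3% lower with tamoxifen in females, and 32.2% and 37.8% in males. Without the 10 libraries 42.2% passed in males in either direction. With tamoxifen in females, 3 of 10 cardiomyocyte markers passed, 2 higher (led by Myl3, 0.16) and 1 lower (Ttn, -0.24), and 2 of 7 endothelial markers fell (led by Cdh5, -0.18). The summed endothelial markers were 817 to 1265 CPM in vehicle females and 712 to 1059 CPM in tamoxifen females, and the 5 atrial markers 53.4 to 2849 CPM and 37.0 to 3866 CPM. In males, 7 of 7 endothelial markers were lower with tamoxifen (led by Cldn5, -0.67), and the 10 cardiomyocyte markers split into 5 higher (led by Ryr2, 0.69) and 5 lower (led by Tnni3, -0.33). Without the 10 libraries 1 of the 7 endothelial markers passed in males (Cldn5, -0.33), and of the cardiomyocyte markers 2 were higher (led by Ryr2, 0.51) and 5 lower (led by Tnni3, -0.30). Macrophage markers fell with tamoxifen in females in 5 of 6 (led by Cd163, -0.48) and in males in 2 of 6 with all libraries and without the 10 (led by C1qa, -0.43 and -0.46), with sums of 143 to 259 CPM in vehicle and 87.0 to 211 CPM in tamoxifen females. Fibroblast markers rose in 5 of 7 in females (led by Dcn, 0.37) and fell in 1 of 7 in males (Dpt, -0.28), or in 2 of 7 without the 10 libraries (led by Col1a1, -0.28). Erythroid markers passed in 0 of 5 in females by edgeR (4 at an unadjusted p under 0.05, and 0 by DESeq2) and fell in 2 of 5 in males (led by Hba-a2, -0.47). In males edgeR called 0 of these 5 without the 10 libraries, with 0 at an unadjusted p under 0.05. Of the atrial markers, Myl7 (-3.75) and Myl4 fell in females and 0 of 3 tested passed in males, and Sln and Bmp10 did not pass the filter. The summed fibroblast markers were 1932 to 3400 CPM in vehicle females and 1906 to 3757 CPM in tamoxifen females, and 1732 to 3259 CPM and 1697 to 3234 CPM in males. The part of these shifts in the levels of the 9 enzymes was not tested.

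Over the 48 means of group and time, each centred on its own group, the 9 enzymes did not all vary alike. Pearson's r was highest for Cs and Ogdh (0.97) and for Idh3b and Fh1 (0.97), and lowest for Ogdh and Suclg1 (-0.20) and Cs and Suclg1 (-0.05). These are descriptions without a test, and the means share libraries, scaling and the 10 high-TEC libraries. The genes most like the mean of the 9 were Acadl (0.97), Atp5a1 (0.97), Acadvl (0.97), Sdhc (0.96) and Ndufa10 (0.95). Acadl and Acadvl are acyl-CoA dehydrogenases of fatty acid oxidation, and the other 3 are subunits of the respiratory chain or of ATP synthase. The gene most like each enzyme was Crat for Cs (0.98), Gcdh for Idh2 (0.78), Dlat for Idh3a (0.97), Sdhc for Idh3b (0.97), Slc25a3 for Idh3g (0.94) and for Mdh2 (0.97), Atp2a2 for Ogdh (0.97), Atp5g1 for Suclg1 (0.96) and Mdh1 for Fh1 (0.96). Of these, the likeness of Gcdh to Idh2 was the weakest.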

How the data were processed

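Poly-A RNA of mouse ventricle was sequenced on an Illumina NovaSeq, per the labels. The authors deposited a table of unnormalized read counts, by gene and library. Tools named in the submitters' processing notes are HISAT2, Picard and HTSeq, with the builds GRCm38 and mm10. Tool versions and settings: not given in the sources used here. Each of 96 columns matched the title of 1 library, and 0 were left unmapped.

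Tests used R 4.3.3 and edgeR 4.0.16. Genes were kept by filterByExpr by group (minimum count 10), which left 15629, and libraries were scaled by TMM. A quasi-likelihood model with a mean and 24 h cosine and sine terms for each of 4 groups (12 coefficients, 84 residual degrees of freedom) was fitted to all libraries. A gene is called under an adjusted p of 0.05 (Benjamini-Hochberg over the genes tested). The test was first tried on simulated counts of known change, drawn with the same dispersion for every gene. No library was made to stand apart there, so the trial cannot speak for data that hold the high-TEC libraries. DESeq2 1.42.0 and other alternatives are given at the end. Without the filter, the dispersion trend of the filtered genes was used. No 2 libraries of 1 group and time agreed within sampling noise: chi-square divided by the number of genes (those reaching 20 counts) was 3.86 to 99.6 for the 48 pairs.

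The 9 enzymes, the naming rule and the lists were chosen with earlier results of these data known. All 9 enzymes, the other cycle enzymes and the cytosolic counterparts are named, except that 1 gene first listed with the other cycle enzymes is not reported here and was taken out of that list's counts. In each further list the called gene with the largest change in each direction is named for the tamoxifen comparisons. CPM values are TMM-scaled.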

Additional observations from a re-analysis of the deposited data

Results flagged for a closer look

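The tamoxifen effect differed between females and males for 4 of the 9 enzymes by a test of the difference itself. Of all genes 52.3% passed, and for 9 genes a count of 4 lies near that share. The difference is given as the female minus the male effect on the log2 scale. The values were -0.45 for Cs, -0.26 for Idh3a, -0.63 for Ogdh and 0.19 for Suclg1. Of these, Ogdh (-0.27) and Suclg1 (0.27) passed without the 10 high-TEC vehicle male libraries, and Cs (-0.15) and Idh3a (0.05) did not. In that fit 28.6% of all genes passed.

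The rhythms of 5 enzymes differed between vehicle females and males by the test of the difference, where 37.4% of all genes passed. The vectors were 0.44 for Cs, 0.35 for Idh3a, 0.62 for Ogdh, 0.20 for Suclg1 and 0.25 for Fh1. Without the 10 libraries Ogdh (0.34) and Fh1 (0.20) passed, as did 16.9% of all genes.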

How the results depend on the processing

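No paired analysis was possible because the numbers in the library titles are not shared between groups. For the 9 enzymes, the 26 alternative settings gave 1161 log2 differences in level. Of these, 1029 kept their side of the threshold, 92 lost and 19 gained a call, and 21 turned with a call in either fit. Among values called in neither fit, 40 changed sign. Leaving out each time in turn gave 540 of these differences, ended 42 calls and turned no value called in either fit. Rhythm tests, which have no sign, gave 1872 values under the same settings, of which 65 lost and 50 gained a call. With each time left out in turn, 19 of 864 lost and 13 gained one. Leaving out the 10 vehicle male libraries with the length and GC offset, and leaving out the 23 libraries high in TEC counts or Myl7, were chosen after seeing the data. The fit without a filter borrowed the dispersion trend of the filtered genes. The causes of the changes below were not tested. The lowest level of any of the 9 in any library was 250 CPM.

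Of the 9 enzymes, 5 were called with tamoxifen in females, where 27.5% of all genes passed. The count was 3 with DESeq2's size factors in edgeR, 2 in the first 24 h, 2 with no filter, 1 in the second 24 h and 1 without the libraries high in Myl7 (3 to 5 with a time left out). In males 7 were called, where 70.0% of all genes passed. The count was 3 without the 10 libraries (42.2% of all genes), 3 with the offset as well and 4 in the second 24 h (6 to 7 with a time left out). Between vehicle sexes 6 were called (68.3% of all genes), against 2 without the 10 libraries with the offset (4 to 5 with a time left out). Between tamoxifen sexes 1 was called, where 7.68% of all genes passed. The count was 0 in the first 24 h, in the second 24 h, with no filter and without the library labelled Tam_F_ct54_559 (0 to 1 with a time left out). The difference in tamoxifen effect had 4 calls (52.3% of all genes), against 2 without the 10 libraries with the offset (3 to 4 with a time left out).

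For rhythms, vehicle females had 1 call, against 0 in the first 24 h, 2 in the second 24 h, 4 with only the groups compared, 5 without the 10 libraries, 4 with the offset as well and 6 without the 23 (0 to 2 with a time left out). Vehicle males had 4, against 1 with only the groups compared, without the 10, with the offset as well and without the 23 (2 to 5 with a time left out). The rhythm change with tamoxifen in females had 0 calls, against 1 without the 10 with the offset and 4 without the 23. In males it had 1, against 4 in the first 24 h, 2 with the offset, 2 by library size alone, and 0 in the second 24 h, with time as a factor, with only the groups compared, and without the Myl7-high, the 10 (also with the offset) or the 23 libraries (0 to 3 with a time left out). The vehicle sex difference in rhythm had 5, against 3 in the first 24 h, 3 with no filter, 2 with only the groups compared, 2 without the Myl7-high libraries, 2 without the 10, 2 with the offset as well and 1 without the 23 (2 to 6 with a time left out).

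The values that turned with a call in either fit follow. They are given without the 10 libraries, without them with the offset, and without the 23, as far as each turned. With tamoxifen in males they were -0.0663, -0.0203 and -0.0957 for Idh3b, and -0.0085, -0.0142 and -0.0320 for Fh1. Idh3g turned to -0.0009 without the 10 and -0.0290 without the 23, and Mdh2 to -0.1040 without the 23. Between vehicle sexes they were -0.0321, -0.0036 and -0.0290 for Idh3a and -0.0802, -0.0543 and -0.0720 for Fh1. Idh3b turned to -0.1262 without the 10 and -0.1127 without the 23, and Mdh2 to 0.0152 with the length and GC offset and all libraries. For the difference in tamoxifen effect, Idh3a turned to 0.0488, 0.0288 and 0.0448.

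Over all genes, calls with tamoxifen in females went from 4299 to 2269 in the first 24 h and 2211 in the second. In males they went from 10936 to 6652 without the 10 libraries and 6254 with the offset as well. For sex in tamoxifen hearts, 1201 calls became 395 in the second 24 h and 2561 without the 10 with the offset. The difference in tamoxifen effect had 8181 calls and 3114 in the fewest.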
